A study of Xenopus laevis with 20 samples.

Results

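The regions described here are p300 binding sites of Xenopus laevis gut explants that carried no β-catenin, Smad1 or whole-embryo p300 peak of their own but had a β-catenin or Smad1 peak nearby. They are called flanking p300 sites below, a name for a position beside an effector peak and not for a function. A peak of the explant p300 list was counted as one if it shared no base with any peak of the other lists and if at least 1 β-catenin or Smad1 peak lay within 10 kb, edge to edge, on the same chromosome or scaffold. This held for 2443 of the 15146 explant p300 peaks (16.1%, exact 95% interval 15.5 to 16.7), and for 2443 of the 7597 explant p300 peaks without overlap in any other list. The members were selected on these same peak calls, so the overlaps and gaps used for the selection are given as a description and support nothing.

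The libraries were made by chromatin immunoprecipitation and sequencing (ChIP-seq) from wild-type embryos at Nieuwkoop-Faber stage 20. p300 and β-catenin were each profiled in 4 ChIP libraries of explants, namely foregut with BIO, hindgut with BIO, foregut with DMSO and hindgut with DMSO. BIO inhibits the kinase GSK3, which turns Wnt signalling on, and was used at 60 μM, with DMSO as its vehicle. Culture with either ran from stage 12 to stage 20. From whole embryos there was 1 ChIP library each for Smad1 and p300, for which the labels give no treatment, and 10 input libraries completed the 20 samples. The 4 explant libraries of a protein were joined in 1 peak list, so foregut cannot be told apart from hindgut or BIO from DMSO at any site below, and there is no replicate list.

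p300 is a histone acetyltransferase that is recruited to chromatin by transcription factors and is commonly used to find active enhancers. β-catenin enters the nucleus when Wnt signalling is on and reaches DNA through partners such as TCF/LEF factors. Smad1 is phosphorylated by activated BMP receptors and binds DNA together with Smad4. In the early gut, both pathways help to set the foregut, which gives rise to liver, pancreas and lungs, apart from the hindgut, which forms intestine.

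The absence of β-catenin and Smad1 at these sites is an absence of listed peaks. For Smad1 it is also a comparison of whole embryos, without a labelled treatment, with explants cultured in BIO or DMSO. The same holds wherever Smad1 is described as near a site, alone or with β-catenin. The lists also end at unlike scores, the score being 10 times the −log10 p-value of a peak. The lowest listed score was 786 for β-catenin, 144 for Smad1 and 231 for explant p300, whose median was 328. The part of these limits in the absence of β-catenin was not tested. Peak names are numbered in the order of the genome, without exception in any deposited list, and the listed β-catenin and Smad1 peaks hold 8.34% and 25.5% of their numbers. A run of missing numbers between the listed peaks on either side of a site therefore counts numbered peaks that were not listed. For β-catenin, 2424 of the 2443 flanking p300 sites lay between listed peaks on both sides, and at 6 of them no number was missing in between. For Smad1, no number was missing at 120 of 2386 sites (5.03%, interval 4.19 to 5.98). At the remaining sites an unlisted peak lay somewhere in the same interval, on the p300 site or elsewhere. For p300-only peaks with no effector within 10 kb, no number was missing at 1 of 4918 for β-catenin. For Smad1 this was so at 73 of 4821 (1.51%, interval 1.19 to 1.90). A shorter interval leaves less room for missing numbers. The intervals around flanking sites were a median of 63.5 kb long for β-catenin and 250.3 kb for Smad1. Missing numbers were counted at 0.831 per 10 kb for β-catenin and 0.0925 per 10 kb for Smad1 in intervals that held flanking sites. In intervals that held p300-only peaks with no effector within 10 kb, they came to 0.643 and 0.0724 per 10 kb. Those intervals were longer, with medians of 291.3 kb for β-catenin and 608.5 kb for Smad1. The rule places flanking sites near listed effector peaks, and an interval can hold both kinds of site. The part of this in the rates was not tested.

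Within the 10 kb that the rule allows, flanking p300 sites lay mostly within a few kilobases of their nearest effector peak. The median gap was 3492 bp (exact 95% interval of the median 3336 to 3722), and the middle 50% of gaps ran from 1522 to 5990 bp. The median moves with the limit of the rule, and was 2080 bp with a limit of 5 kb and 5430 bp with 20 kb. A gap of 1 kb or less was found at 413 sites (16.9%, interval 15.4 to 18.5) and a gap of 5 kb or less at 1614 (66.1%, interval 64.1 to 67.9). At 41 of the 2443 sites (1.68%) the gap was 200 bp or less, and no summit lay closer than 399 bp to the summit of its nearest effector peak. Whether a site and its nearest effector peak are parts of a single broad region was not tested. The number of p300-only peaks per kilobase of gap fell from 412 in the first kilobase to 138 between 9 and 10 kb, and went on to 135 between 10 and 11 kb and 82 between 19 and 20 kb. The counts show no step at 10 kb, so that limit divides a continuous range.

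**Figure D1:**
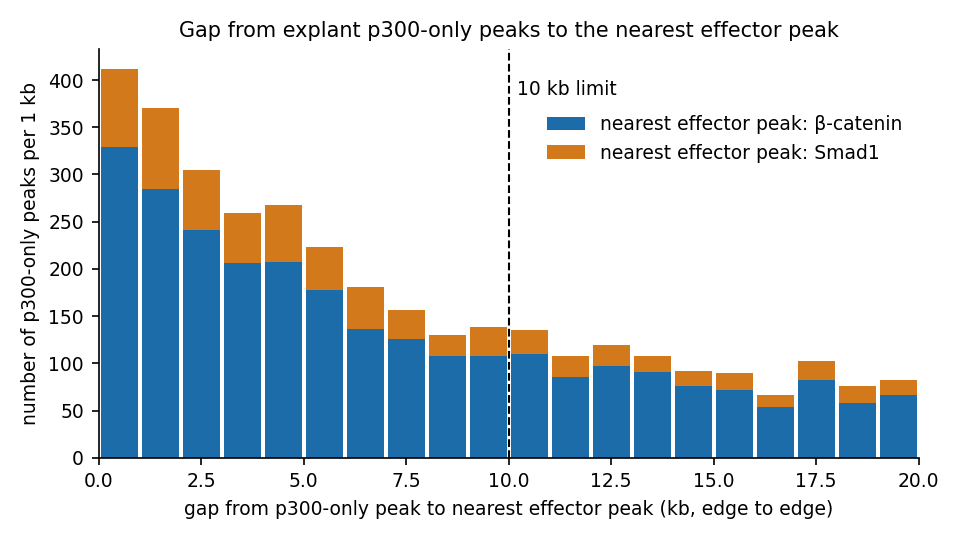
Number of explant p300-only peaks (y axis) by gap to the nearest β-catenin or Smad1 peak (x axis, 1 kb bins to 20 kb), coloured by which protein gave the nearest peak. Bars left of the dashed 10 kb line are the 2443 flanking p300 sites, and the counts fall from 412 in the first bin to 138 in the last bin before the line without a step at it.

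The limits of the rule can be seen at single peaks. The smallest gaps were 21 bp, on chromosome 5L from 72748515 to 72748927 (8.52-fold p300 enrichment over local background), 39 bp, on chromosome 2L from 58019313 to 58019803 (8.92-fold), and 53 bp, on chromosome 2L from 87461330 to 87461691 (6.51-fold). All 3 lay beside a β-catenin peak that itself overlapped neither p300 list nor Smad1. The members just inside the 10 kb limit, all on chromosome 4L, had gaps of 9993, 9992 and 9991 bp and folds of 12.1, 5.98 and 10.05. The p300-only peaks just outside it, on chromosomes 7L, 6L and 3S, had gaps of 10014, 10019 and 10026 bp and folds of 6.69, 8.29 and 7.22. The folds inside and outside overlapped.

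By count of sites, β-catenin was the more frequent neighbour. It had a peak within 10 kb of 2142 sites, at a median gap of 3662 bp, and Smad1 had one within 10 kb of 1346 sites, at a median gap of 3961 bp. By combination, 1097 sites (44.9%, interval 42.9 to 46.9) had β-catenin peaks alone within 10 kb, 301 (12.3%, interval 11.04 to 13.7) had Smad1 peaks alone and 1045 (42.8%, interval 40.8 to 44.8) had both. At 932 of these 1045 sites (89.2%, interval 87.1 to 91.0), a β-catenin and a Smad1 peak in the window overlapped each other, which need not include the nearest peak. The nearest peak was β-catenin at 1924 sites (78.8%) and Smad1 at 519 (21.2%). The β-catenin list is also the longer, with 16303 peaks against 7976 for Smad1. Relative to list length the order was the reverse. Within 10 kb of a flanking site lay 2596 β-catenin peaks (15.9% of their list) and 1525 Smad1 peaks (19.1% of theirs). The part of list length in the counts of sites was not tested.

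Sites with both effectors nearby had a shorter gap to the nearest effector peak and more effector peaks around them. Their median gap to the nearest effector peak was 2664 bp (interval 2489 to 2906), against 4086 bp (interval 3826 to 4333) with β-catenin alone and 4388 bp (interval 4002 to 4860) with Smad1 alone. They had a median of 3 effector peaks in the window, against 1 in each of the other classes. This class needs a peak of each effector, so a higher count follows in part from its definition. More peaks in a window make a short gap, and peaks on both sides of a site, more likely by construction. Effector peaks lay on both sides of 405 of the 1045 sites with both effectors (38.8%), of 90 of the 1097 sites with β-catenin alone (8.2%) and of 16 of the 301 with Smad1 alone (5.32%).

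In all, 1197 sites (49.0%) had a single effector peak within 10 kb, 628 had 2, 279 had 3 and 339 (13.9%) had 4 or more. Each list was counted separately, so a β-catenin peak and a Smad1 peak that overlap count as 2. The highest number was 13, at the site on chromosome 1L from 144778963 to 144779345, with 6 β-catenin and 7 Smad1 peaks. The p300 site itself had 6.60-fold enrichment, and its nearest neighbour, 1500 bp away, was a β-catenin peak of 19.1-fold enrichment without p300. A site on chromosome 4S from 41937843 to 41938321 (9.71-fold) had 6 β-catenin and 6 Smad1 peaks in reach, and a site on chromosome 1L from 132023995 to 132024422 (6.68-fold) had 7 and 5. Whole-embryo p300 peaks were within 10 kb of all 3 of these sites, although on none of them.

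The p300 enrichment of flanking sites was close to that of p300-only peaks far from effectors and below that of p300 peaks on an effector. Fold enrichment is the authors' ratio of ChIP signal over local background at each peak. Its median was 7.61 (interval 7.53 to 7.69) at the 2443 flanking sites, against 7.74 (interval 7.70 to 7.81) at the 5154 p300-only peaks with no effector within 10 kb. It was 8.59 (interval 8.51 to 8.65) at the 6887 explant p300 peaks that overlapped β-catenin or Smad1. The middle 50% of folds ran from 6.69 to 8.72 at flanking sites, from 6.79 to 8.95 at the distant p300-only peaks and from 7.18 to 10.5 at p300 peaks on an effector. The groups therefore overlapped over most of their range, and these differences were not tested, because the groups were formed from the same peak calls and peaks are not replicates.

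**Figure D2:**
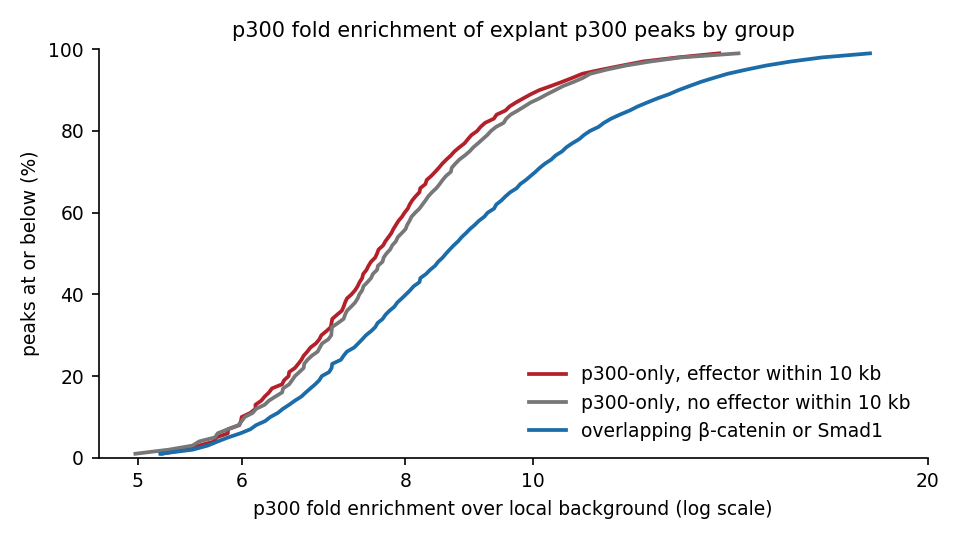
Share of peaks at or below each p300 fold enrichment (y axis, %) against the fold (x axis, log scale) from the 1st to the 99th percentile, for flanking p300 sites (red), p300-only peaks with no effector within 10 kb (grey) and p300 peaks overlapping an effector (blue). The red and grey curves run side by side, with medians of 7.61 and 7.74, and the blue curve lies to their right with a median of 8.59.

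Median width differed between flanking sites and distant p300-only peaks in the opposite direction to fold. The median width was 382 bp (interval 374 to 389) at flanking sites, against 367 bp (interval 363 to 371) at distant p300-only peaks and 453 bp (interval 449 to 458) at p300 peaks on an effector. The median score, which is 10 times the −log10 p-value of the peak, was 301 (interval 298 to 306) at flanking sites, against 296 (interval 293 to 297) at distant p300-only peaks and 375 (interval 370 to 380) at p300 peaks on an effector. Flanking sites were thus slightly wider and slightly less enriched than distant ones, with scores that differed by a few units on a scale that ran from 231 to 2607 over the list.

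Flanking sites made up a larger part of the weak end of the p300 list than of its strong end. With the list divided by score into 10 bins of 1514 or 1515 peaks, they were 83 of the 1515 peaks in the highest bin (5.48%), 272 of 1514 in bin 5 (18%) and 321 of 1514 in the lowest bin (21.2%). p300 peaks on an effector took 77.4% of the highest bin and 27.0% of the lowest. Among p300-only peaks alone, the share with an effector within 10 kb had no such slope. It was 37.2% (83 of 223, interval 30.9 to 43.9) in the highest bin and 30.1% (321 of 1067, interval 27.3 to 32.9) in the lowest, and lay between 29.1% and 35.1% in the bins between them. Distant p300-only peaks likewise were 9.24% of the highest bin and 49.3% of the lowest.

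**Figure D3:**
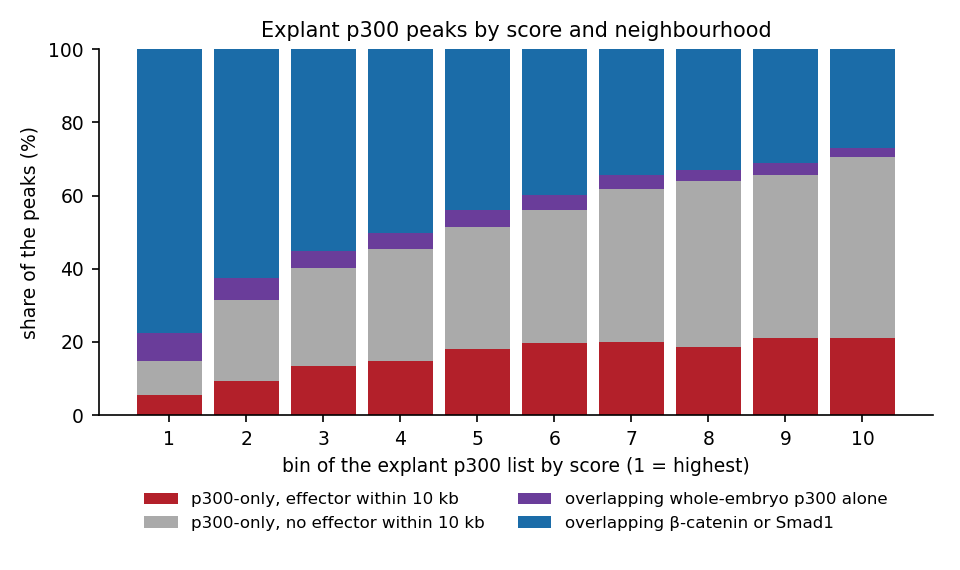
Composition (y axis, %) of the explant p300 list in 10 bins by score (x axis, bin 1 has the highest scores). Flanking p300 sites (red) grow from 5.48% to 21.2% of the peaks from bin 1 to bin 10, in step with the other p300-only peaks (light grey), while p300 peaks on an effector (blue) shrink from 77.4% to 27.0%.

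Within the flanking sites, p300 enrichment varied little with the gap and was lowest at sites with 4 or more effector peaks in reach. By kilobase of gap from 0 to 10 kb, the median fold stayed between 7.47 and 7.83, with 130 to 412 sites in each bin. Across the 2443 sites, Spearman's rho of fold with gap was 0.048, and that of fold with the number of effector peaks in the window was −0.082. The median fold was 7.71 (interval 7.62 to 7.83) at sites with 1 effector peak in reach and 7.56 (interval 7.43 to 7.72) with 2. It was 7.58 (interval 7.36 to 7.79) with 3 and 7.32 (interval 7.16 to 7.54) with 4 or more. The last interval overlapped those for 2 and 3. Here too, a β-catenin peak and a Smad1 peak that overlap count as 2. Sites with Smad1 alone in reach had a median fold of 7.80 (interval 7.51 to 8.03), those with β-catenin alone 7.64 (interval 7.56 to 7.76) and those with both 7.53 (interval 7.41 to 7.62). The fold of a site hardly followed that of its nearest neighbour, with a rho of 0.033 over 1924 sites beside β-catenin and −0.075 over 519 beside Smad1. Sites in these counts share libraries and, where they have a common neighbour, an effector peak.

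Some flanking sites ranked among the strong p300 peaks. The highest-scoring one, on chromosome 5S from 17253727 to 17254394, had a score of 2089 and 25.1-fold enrichment and ranked 4th in the whole explant p300 list. A single β-catenin peak lay within 10 kb of it, 3967 bp away and with 15.0-fold enrichment, and this peak carried no p300 or Smad1. The next member by score, on chromosome 1L from 153870259 to 153871173, was far lower, with a score of 1019, 13.3-fold enrichment and rank 118. Its only effector peak in reach was 9990 bp away, so that it was a member by a margin of few bases.

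At the next 3 sites by score, as at the site on chromosome 1L, the nearest effector peak was a β-catenin peak that overlapped explant p300. The site on chromosome 1S from 126874383 to 126875802 was 1420 bp wide, with 11.6-fold enrichment, and lay 5471 bp from a β-catenin peak that also carried Smad1 and both p300 lists. On chromosome 2L from 146187553 to 146188359, a site of 18.5-fold p300 enrichment lay 1416 bp from a β-catenin peak of 8.58-fold enrichment that overlapped explant p300 as well. A site of 16.3-fold enrichment, on chromosome 4L from 124163148 to 124163848, was 5927 bp from a β-catenin peak with explant p300.

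The next 5 sites by score lay on chromosomes 8L, 3L, 5S, 3L and 1L, with folds of 12.5 to 15.9 and ranks of 301 to 367 in the list. The nearest effector was β-catenin at each of the 10 highest-scoring sites, and the gap ranged from 653 bp, beside the site on chromosome 3L from 90115908 to 90116529, to 9990 bp. At 7 of the 10 the nearest β-catenin peak overlapped explant p300. Over all flanking sites the nearest effector was β-catenin at 78.8%, and 48.6% of these 1924 sites had explant p300 on that peak. Whether the 10 differ from the other sites was not tested. The last of the 10 shared its score of 834 with 1 other member. At the other end, 15 members had the lowest score, 231. Among them, a site on chromosome 3L had the lowest fold, 5.11, and 4 sites were tied at the next fold, 6.26, including sites on chromosomes 6L and 5L. No gene is named for any member, since no annotation of the same build as the lists was used here.

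The effector peaks in reach of flanking sites carried p300 more often than the rest of their lists. Of the 2596 β-catenin peaks within 10 kb of a flanking site, 1318 overlapped an explant p300 peak (50.8%, interval 48.8 to 52.7), against 4547 of the 13707 other β-catenin peaks (33.2%, interval 32.4 to 34.0) and 36.0% of the whole list. Of the 1525 Smad1 peaks in reach, 1088 overlapped explant p300 (71.3%, interval 69.0 to 73.6), against 3616 of the 6451 other Smad1 peaks (56.1%, interval 54.8 to 57.3) and 59.0% of the list. The p300 list that gives these overlaps also chose the members, so the shares describe the neighbourhood and are no test of it.

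Over all effector peaks in reach, sharing between both effectors was also more frequent than over those out of reach. Of the β-catenin peaks in reach, 39.3% (interval 37.4 to 41.2) overlapped Smad1, against 29.0% (interval 28.2 to 29.7) of those out of reach and 30.6% of the list. Of the Smad1 peaks in reach, 67.3% (interval 64.9 to 69.6) overlapped β-catenin, against 62.1% (interval 60.9 to 63.3) of those out of reach and 63.1% of the list. Whole-embryo p300 lay on 18.6% of the β-catenin peaks in reach, against 11.7% of those out of reach and 12.8% of the list, and on 31.4% of the Smad1 peaks in reach, against 25.0% out of reach and 26.3% of the list. The 441 Smad1 peaks that were the nearest effector peak of a flanking site went the other way for β-catenin, with 18.4% (interval 14.9 to 22.3) on it. Whole-embryo p300 lay on 22.2% of them (interval 18.4 to 26.4), an interval that holds the shares out of reach and over the list. A Smad1 peak that overlaps β-catenin counts as nearest only where its edge is the closer of the pair. The 1661 nearest β-catenin peaks overlapped Smad1 at 32.1% (interval 29.9 to 34.5) and whole-embryo p300 at 16.3% (interval 14.6 to 18.2). The median effector fold itself was lower in reach, though the intervals for Smad1 overlapped. Median scores in and out of reach were 221 and 219 for Smad1, and 1264 and 1273 for β-catenin. The median β-catenin fold was 11.3 (interval 11.1 to 11.5) in reach and 12.3 (interval 12.2 to 12.4) out of reach, and the median Smad1 fold was 8.19 (interval 8.01 to 8.35) in reach and 8.35 (interval 8.29 to 8.44) out of reach.

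For a single flanking site, the nearest effector peak carried an explant p300 peak in 1247 of 2443 cases (51.0%, interval 49.0 to 53.0). This was so for 935 of the 1924 sites nearest to β-catenin (48.6%, interval 46.3 to 50.9) and for 312 of the 519 nearest to Smad1 (60.1%, interval 55.8 to 64.4), against 36.0% of all β-catenin peaks and 59.0% of all Smad1 peaks. The Smad1 share was thus close to that of its whole list. At least 1 effector peak in the window carried explant p300 at 1474 sites (60.3%). At the remaining 969 sites no effector peak in the window overlapped explant p300.

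Where a p300 peak on an effector lay within 10 kb, the flanking site was usually the weaker of the pair. This could be compared at 1465 sites, each against the nearest such p300 peak, at a median gap of 3688 bp. The flanking site had the lower fold in 974 pairs (66.5%, interval 64.0 to 68.9), and 2 pairs were tied. The median fold was 7.56 at the flanking sites and 8.71 at the paired peaks, and the median ratio of the pair was 0.870, with the middle 50% from 0.681 to 1.09. The flanking site was also the narrower in 983 pairs (67.1%), with a median width of 381 bp against 461 bp. Both peaks of a pair come from the same p300 list, and several sites can share a paired peak. Flanking sites and p300 peaks on an effector also differed as whole groups, with median folds of 7.61 and 8.59. Whether neighbouring peaks differ by more than the groups do was not tested.

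Flanking sites had other p300 peaks around them more often than distant ones did. Another explant p300 peak lay within 10 kb of 1763 of the 2443 sites (72.2%, interval 70.3 to 73.9), against 1185 of the 5154 distant p300-only peaks (23.0%, interval 21.8 to 24.2). A distant peak has no effector in reach and so can hardly have a p300 peak on an effector in reach, which lowers its share by construction. Another flanking site was within 10 kb of 747 sites (30.6%, interval 28.8 to 32.4), and 680 sites (27.8%) had no other explant p300 peak in reach. Having an effector nearby was itself common for p300 peaks: 226 of the 662 explant p300 peaks that overlapped whole-embryo p300 and no effector had an effector peak within 10 kb (34.1%, interval 30.5 to 37.9), close to the 32.2% (interval 31.1 to 33.2) of p300-only peaks that gives the flanking sites. Of the p300 peaks on an effector, 57.2% had a further effector peak beside them within 10 kb.

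Joined where they lay within 10 kb of each other, the flanking sites formed 2028 loci. Of these, 1696 held a single site (83.6%), 267 held 2, 48 held 3, 16 held 4 and 1 held 5. Of the 16 loci with 4 sites, the 2 with the highest summed score are described. The largest locus had 5 sites over 14.0 kb on Scaffold33 from 1907964 to 1921984, with folds of 6.30 to 10.9 and gaps of 1154 to 6961 bp to an effector peak. Within 10 kb of its ends lay 2 β-catenin peaks, 1 Smad1 peak and 1 further explant p300 peak, and no whole-embryo p300 peak. A locus of 4 sites on chromosome 8S from 25560332 to 25571901 had the most peaks around it of the 3 described, with 4 β-catenin, 3 Smad1 and 4 whole-embryo p300 peaks in the same span and folds of 6.18 to 12.6. A locus of 4 sites on chromosome 2L from 75982330 to 75989049 had 3 β-catenin peaks, 1 Smad1 peak and 1 whole-embryo p300 peak around it, and folds of 7.29 to 10.9.

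**Figure D4:**
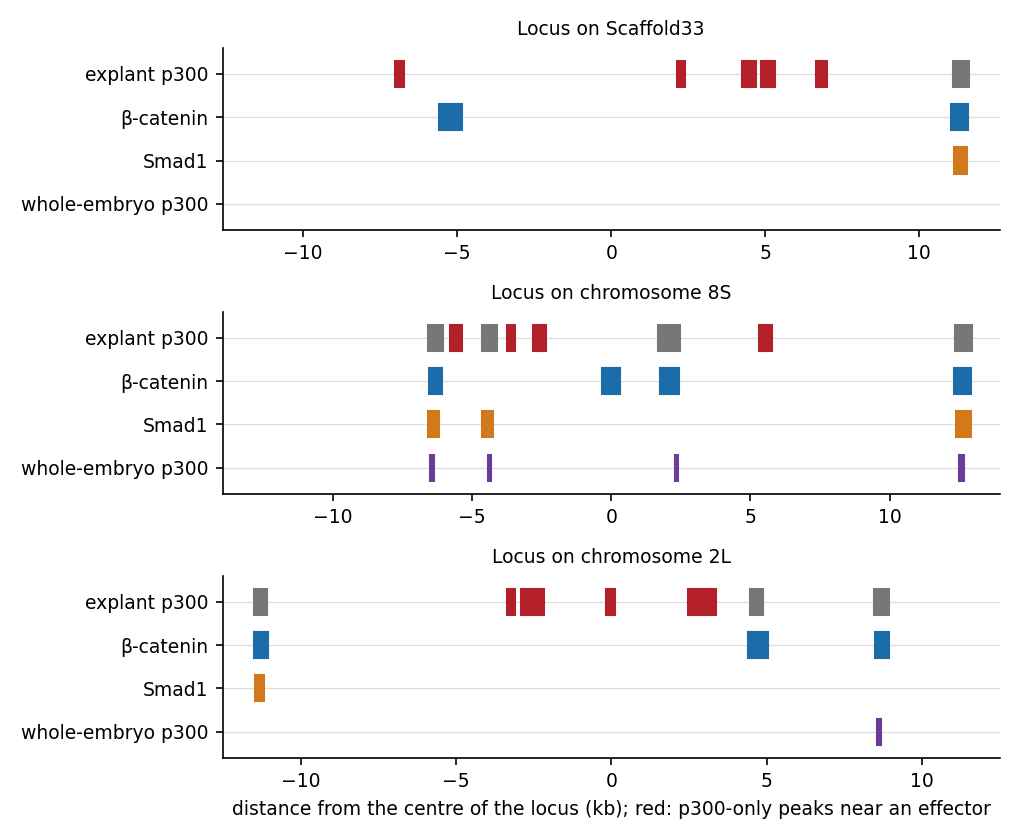
Peaks of the 4 lists (rows) at the locus with 5 flanking p300 sites and at 2 of the 16 loci with 4, by distance from the centre of the locus (x axis, kb), with each peak drawn to scale. The flanking sites (red, 5 on Scaffold33 and 4 on each of chromosomes 8S and 2L) lie between or beside effector peaks (blue and orange), several of which carry a p300 peak of their own (grey for explants, purple for whole embryos).

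Whole-embryo p300 peaks, which could not overlap a flanking site by the rule, were frequent beside these sites. One lay within 10 kb of 728 of the 2443 flanking sites (29.8%, interval 28.0 to 31.7), against 225 of the 5154 distant p300-only peaks (4.37%, interval 3.82 to 4.96). For p300 peaks on an effector, a whole-embryo p300 peak beside them, overlaps not counted, was found at 23.8% (interval 22.8 to 24.8). The share was 50.2% (interval 47.2 to 53.3) at flanking sites with both effectors in reach, 23.9% (interval 19.2 to 29.1) with Smad1 alone and 11.9% (interval 10.1 to 14.0) with β-catenin alone. The p300 lists are unlike. Whole embryos have 4555 peaks of median width 118 bp, against 15146 of 411 bp in explants. They hold 100% and 15.7% of their peak numbers. The part of these list properties in the overlaps was not tested.

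Most of these whole-embryo p300 peaks sat on the effector sites. Of the 746 whole-embryo p300 peaks within 10 kb of a flanking site, 601 overlapped β-catenin or Smad1 (80.6%, interval 77.5 to 83.3) and 620 overlapped another explant p300 peak (83.1%, interval 80.2 to 85.7). Over the whole list of 4555, the shares were 57.0% and 61.3%. The rule itself fixed the presence of effector peaks near flanking sites and their absence near distant ones. The part of this in the whole-embryo p300 difference was not tested.

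Flanking sites were spread over all 18 chromosomes, with 108 of the 2443 on unplaced scaffolds. Xenopus laevis carries a longer (L) and a shorter (S) copy of each chromosome from its allotetraploid origin. Of the flanking sites on named chromosomes, 1461 of 2335 lay on L (62.6%, interval 60.6 to 64.5). Over all explant p300 peaks on named chromosomes the share was 60.3% (interval 59.5 to 61.1). It was 58.4% for distant p300-only peaks (2801 of 4795, interval 57.0 to 59.8) and 60.9% (interval 59.7 to 62.1) for p300 peaks on an effector. Per megabase up to the last peak of any list, L chromosomes held 1.07 flanking sites and S chromosomes 0.768. Effector peaks were denser on L as well, at 9.98 against 8.08 per megabase.

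The share of p300-only peaks with an effector within 10 kb was 34.3% on L (interval 32.9 to 35.7) and 30.5% on S (interval 28.8 to 32.2). It was higher on the L copy in 7 of the 9 chromosome pairs. The widest difference was in pair 8, with 37.5% (interval 33.04 to 42.1) on 8L and 27.8% (interval 23.0 to 33.0) on 8S. In pairs 3 and 7 the S copy was higher, with 33.4% on 3L against 33.8% on 3S, and 35.4% on 7L against 36.9% on 7S. In each of the pairs other than pair 8 the intervals of the L and S copies overlapped.

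**Figure D5:**
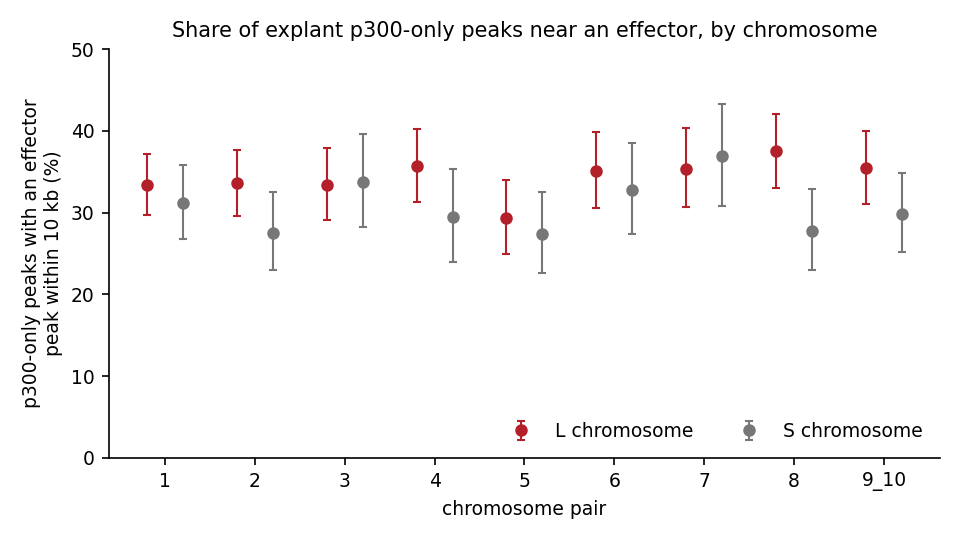
Share of explant p300-only peaks with an effector peak within 10 kb (y axis, %) for the L (red) and S (grey) copy of each chromosome pair (x axis), with exact 95% intervals that cover counting error alone. Points lie between 27.4% and 37.5%, and pair 8 alone has L and S intervals that do not overlap.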

How the data were processed

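Several kinds of value were used, all as deposited, from 4 narrow-peak lists without headers: a score, a fold ratio of ChIP pileup over local background, the −log10 of the p-value or q-value, and the summit offset. In the deposited lists the score is 10 times the −log10 p-value (β-catenin, Smad1, explant p300) or the −log10 q-value (whole-embryo p300). Per the submitters' processing notes, the tools were MACS2, Bowtie2, Trimmomatic, FastQC, Picard and SAMtools, without roles. The titles of the lists other than whole-embryo p300 name IDR, and the peak names state that libraries were pooled. For Smad1 the labels give only 1 ChIP library, and what was pooled for its list is not stated. The sources used here give neither read counts per library nor the genome build.

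Each interval was kept once with its highest score (172 repeated lines in the whole-embryo p300 list), and 14 peaks without a summit were given their midpoint. Overlap meant 1 shared bp. A gap is the number of bases between edges. Positions are counted from 1. Shares have exact Clopper-Pearson 95% intervals and medians exact binomial intervals of the order statistics, computed with scipy 1.17.1. These cover counting error only, and neighbouring peaks are not independent. No test was run, since each list is a single call set and the members were chosen from it. The counting was checked on simulated lists with known members.

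Named peaks are the 10 highest- and 3 lowest-scoring members (ties by fold, then arbitrary), the 3 with the smallest gap, the 3 on each side of the 10 kb limit, the 3 with the most effector peaks in reach and the 3 loci with the most members (16 were tied at 4 sites, 2 of them taken by summed score). The members and these rules were chosen with earlier results of these data known. Genes, motifs and sequence were not analysed here: on 18 of 18 chromosomes the RefSeq gene table at hand ran on for over 1 Mb past the end of the lists, and was treated as a different assembly.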

Additional observations from a re-analysis of the deposited data

How the results depend on the processing

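Of 164 values recomputed under 10 alternatives, 116 stayed within the exact interval of the reported value, or within 1.5 times a reported count. This tally does not measure robustness, since some of the values could not move. The p300 peaks on an effector were the same 6887 peaks in the alternatives that changed only the window, the neighbours or the use of whole-embryo p300. The limit for counts was also wide, and the 3422 sites found with a 20 kb window fell within it. In all 10, the median fold of flanking sites stayed below, and their median width above, that of distant p300-only peaks. Both stayed below those of p300 peaks on an effector. Distant here means without a counted neighbour in the window of that alternative. With Smad1 neighbours alone, it thus includes peaks near β-catenin. The alternatives share many peaks and are not independent of each other. The following moved. With a 5 kb window there were 1614 sites (21.2% of p300-only peaks) with a median gap of 2080 bp. β-catenin was then in reach of 85.7%, Smad1 of 51.0%, both of 36.7% and whole-embryo p300 of 26.0%. With a 20 kb window the sites were 45.0% of p300-only peaks, the median gap was 5430 bp, and the same shares were 90.4%, 57.9%, 48.3% and 33.5%. The nearest effector peak then carried p300 at 48.2%.

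With the higher-scoring 50% of the explant p300 list there were 922 sites in 840 loci, with Smad1 in reach of 52.5% and both effectors of 38.9%, and 65.5% on L. Their nearest effector carried p300 at 35.5%, and 62.8% were weaker than the paired p300 peak. Only p300 peaks of the kept 50% were counted in both shares, which lowers the first of them by construction. Median folds were 8.95 at flanking, 9.23 at distant and 9.87 at effector-overlapping peaks, and median widths 421.5, 401 and 482 bp. With the higher-scoring 50% of the effector lists as neighbours there were 1487 sites (19.6%) in 1252 loci with a median gap of 3958 bp. β-catenin was in reach of 82.9%, Smad1 of 49.9%, both of 32.8% and whole-embryo p300 of 37.5%, and the nearest effector carried p300 at 59.7%.

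With Smad1 neighbours alone there were 1346 sites (17.7%) in 1116 loci with a median gap of 3961 bp. The nearest effector carried p300 at 72.5%, 69.1% were weaker than the paired peak, and whole-embryo p300 was in reach of 44.4%. With β-catenin neighbours alone the sites were 28.2% of p300-only peaks. With summits within 200 bp as the overlap rule they were 33.7%, with a median gap of 3154 bp, and the nearest effector carried p300 at 47.4%. Without the exclusion of whole-embryo p300, that protein was within 10 kb of or on 35.7% of the sites. The combination of effectors was not recomputed with 1 kind of neighbour, where it is fixed. No paired analysis was possible because each list pools its libraries and the samples carry no replicate numbers, and for the same reason no library was left out. Read depth is unknown.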
